A study of Mus musculus with 6 samples.

Results

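Calcineurin-NFAT and CaMKII-MEF2 signalling are the calcium-driven branches of the hypertrophic response of heart muscle, and 10 of their genes were examined here among the 30914 genes of the table. The 10 genes were listed by name: Rcan1, the calcineurin subunit genes Ppp3ca and Ppp3cb, the transcription factor genes Nfatc1, Nfatc2, Nfatc3 and Nfatc4, the kinase gene Camk2d, and the transcription factor genes Mef2a and Mef2c. All 10 were in the table, and all 10 passed the filter on low values, which kept 13089 genes that reached 0.5 FPKM in 3 or more of the 6 libraries. FPKM is the number of fragments of a gene relative to its length and to the mapped fragments of the library.

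RNA was sequenced from the hearts of 3 mice of the Ang II group and 3 mice of the Ang II + Tec group, to compare the transcriptomes of hypertrophic hearts with and without tectochrysin (Tec), a plant flavone. All 6 were wild-type male C57BL/6J mice, 8 weeks old at the start, that received angiotensin II (Ang II, the vasoconstrictor peptide of the renin-angiotensin system) at 1 μg/kg/min for 4 weeks from osmotic pumps. The Ang II + Tec mice also received Tec at 5 mg/kg during the last 2 weeks. Both groups carried Ang II, no sample without Ang II was analysed, and every value below therefore compares 2 groups of Ang II-treated hearts. The tissue was whole heart, in which fewer cells of a type and less RNA per cell cannot be told apart.

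Calcineurin is a calcium- and calmodulin-dependent phosphatase that removes phosphate from cytoplasmic NFAT proteins, which then enter the nucleus and act on hypertrophic genes together with GATA4. CaMKII is a calcium- and calmodulin-dependent kinase whose delta form predominates in cardiomyocytes. It phosphorylates class II histone deacetylases, which leave the nucleus and free the MEF2 factors that they repress. Activity in both branches is set largely by calcium and by phosphorylation, which transcript levels do not measure, except that Rcan1 is itself transcribed under NFAT control and is widely read as a gauge of calcineurin activity.

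The starts of Rcan1 and Mef2c are shown because these genes had the largest differences between the groups among the 10 and because NFAT sites at the internal start of Rcan1 are the textbook example of the branch. The sequences are the 250 bases before each start on the gene's own strand, from RefSeq on GRCm38.p6, written 5′ to 3′, and capitals mark the NFAT core GGAAA or its reverse complement TTTCC. The windows are chr16:92400079-92400328 (minus strand) for the internal start of Rcan1, chr16:92466170-92466419 (minus strand) for its upstream start, and chr13:83503784-83504033 (plus strand) for the first start of Mef2c.
Rcan1 internal start: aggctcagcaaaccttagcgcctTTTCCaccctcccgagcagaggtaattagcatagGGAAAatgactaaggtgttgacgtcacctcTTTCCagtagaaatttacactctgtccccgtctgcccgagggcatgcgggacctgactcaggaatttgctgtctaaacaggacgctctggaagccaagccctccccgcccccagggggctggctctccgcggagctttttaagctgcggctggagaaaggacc
Rcan1 upstream start: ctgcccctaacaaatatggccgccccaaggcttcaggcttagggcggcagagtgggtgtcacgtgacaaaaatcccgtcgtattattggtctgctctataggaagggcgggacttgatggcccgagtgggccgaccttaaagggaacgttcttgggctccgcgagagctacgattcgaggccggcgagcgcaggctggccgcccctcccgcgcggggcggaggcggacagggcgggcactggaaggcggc
Mef2c first start: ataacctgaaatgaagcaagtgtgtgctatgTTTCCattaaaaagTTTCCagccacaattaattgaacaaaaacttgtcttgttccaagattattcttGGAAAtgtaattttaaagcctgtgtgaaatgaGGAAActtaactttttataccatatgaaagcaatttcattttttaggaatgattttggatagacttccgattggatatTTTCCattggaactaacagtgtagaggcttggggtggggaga

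The internal start of Rcan1 held 3 matches, whose first bases lay 227, 193 and 163 bases before the start, and its GC content was 56.4%. No match was found before the upstream start, whose GC content was 64.8%. The window of Mef2c held 5 matches, at 219, 205, 152, 120 and 42 bases, in a window with a GC content of 33.6%, and the other 2 RefSeq starts of Mef2c, downstream, had none. Over all 32851 promoter windows of the same length in the RefSeq table, 55.6% held at least 1 match on either strand, 6.39% held at least 3 and 0.390% held at least 5. RefSeq windows were matched for 8 of the 10 genes, with 13 starts in all, and 8 of the 13 held at least 1 match. Ppp3ca and Nfatc1 had no entry. The MEF2 consensus was found at 0 of the 13 starts and in 2.92% of all windows. A match of this kind is a run of letters and does not show binding, and the gene-level FPKM does not separate the starts, since the annotation (GENCODE M21) gives Rcan1 7 transcripts.

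The libraries differed in ways that bear on all 10 genes. Replicate 3 of the Ang II group stood apart from the other Ang II hearts: on the first principal component, which held 68.7% of the variance, it lay at 19.2 against -31.2 and -46, near the Ang II + Tec hearts at 28.6, 2.39 and 27. If its label were wrong, every difference between the groups would change. On the skeletal muscle genes Atp2a1 and Mylpf, chosen for this after their values were seen, it lay with the Ang II hearts. Both were called higher with Tec while it was counted as Ang II, so its place on them does not test the label. Atp2a1 was at 0.07 FPKM in it, against 0.10 and 0.07 FPKM in the other Ang II hearts and 6.30 to 7.51 FPKM with Tec, and Mylpf at 0.22 FPKM, against 0.58 and 0.56 FPKM and 3.44 to 4.55 FPKM. The other tested skeletal muscle marker, Tnnt3, was at 6.91, 42.4 and 0.30 FPKM with Ang II and 1.04 to 1.41 FPKM with Tec. Replicate 3 of the Ang II group had a mitochondrial share of FPKM of 48.9%. The share was 41.3% and 40.2% in the other Ang II hearts and 49.6% to 52.5% with Tec. Of all tested genes, 80.0% had a lower mean log2(FPKM + 1) with Tec, with a median log2 fold change of -0.17. After the libraries were rescaled by median of ratios (a factor per library, from the typical gene's ratio to its geometric mean over the libraries), that median was 0.0087 and 48.2% of genes were lower. Single genes moved by a median of 0.19. Fold changes are Ang II + Tec minus Ang II on the log2(FPKM + 1) scale.

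Across the 10 genes, 0 were called differentially expressed by limma at a Benjamini-Hochberg adjusted p under 0.05 and a log2 fold change of 1 or more in size, a rule that 0.160% of tested genes met. None passed the adjusted p alone, which 0.183% of genes did. At an unadjusted p under 0.05, Mef2c was lower and 0 were higher, against 16.5% of all genes lower and 2.09% higher. Means were lower with Tec for 9 of the 10, and the median of the 10 log2 fold changes was -0.17, the value of the whole table. After median-of-ratios scaling 3 were lower and 7 higher, the median was 0.010, and Mef2c again was the only one with an unadjusted p under 0.05, against 7.90% of all genes lower and 7.56% higher. When the libraries were instead scaled to their summed FPKM without mitochondrial genes, 9 of the 10 again had lower means. The count of lower means thus depended on which scaling was used, while Rcan1, Nfatc4 and Mef2c were lower under each of them.

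**Figure D1:**
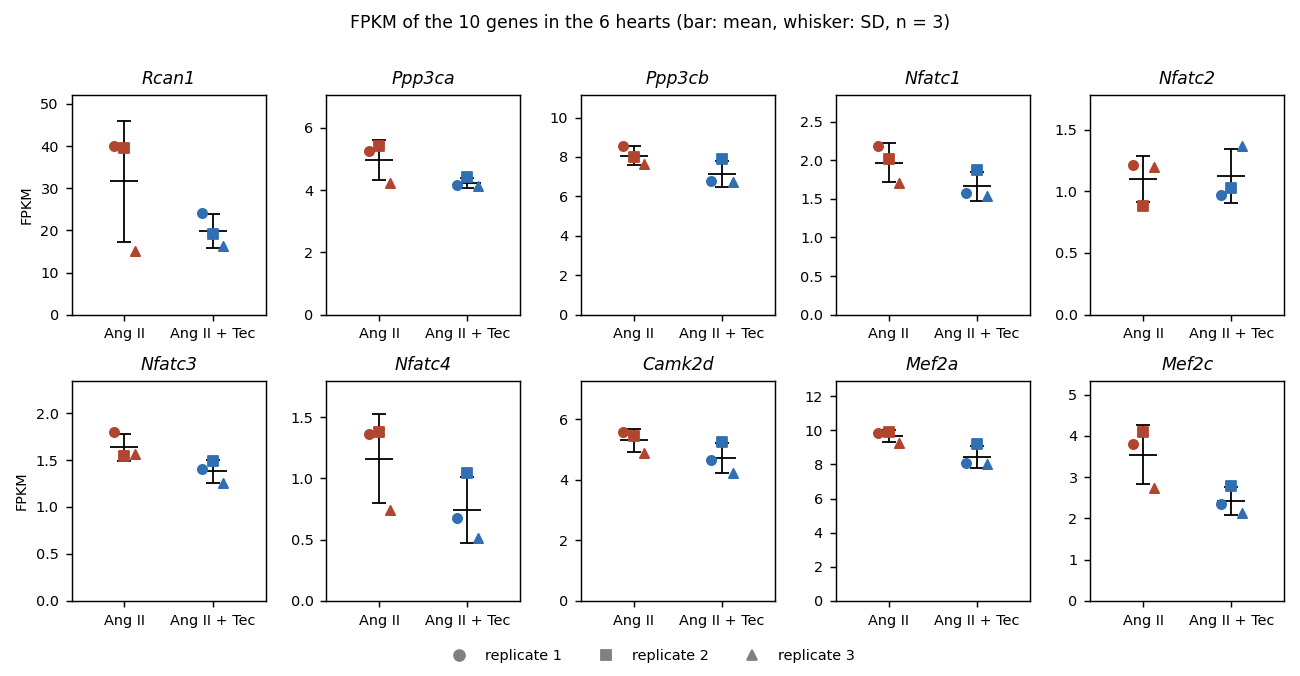
FPKM (vertical axes, each from 0) of the 10 genes in the 3 Ang II and 3 Ang II + Tec hearts, with a marker shape for each replicate number, the mean as a bar and the SD as a whisker. Rcan1, Nfatc4 and Mef2c show replicate 3 of the Ang II group well below the other Ang II hearts, and only Nfatc3 and Mef2a have groups that do not overlap.

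Rcan1 (ENSMUSG00000022951, chr16:92391953-92470867, minus strand), the calcineurin inhibitor and NFAT target, was at 40.1, 39.6 and 15.2 FPKM in replicates 1, 2 and 3 of the Ang II group and at 24.1, 19.2 and 16.2 FPKM with Tec. Both high Ang II hearts exceeded every Tec heart, whereas replicate 3 was the lowest of all 6, so the groups overlapped. The means were 31.6 ± 14.3 (SD, n = 3) and 19.8 ± 3.96 FPKM, a coefficient of variation of 45.1% against 20.0%. The log2 fold change was -0.54 (SE 0.36, 95% interval -1.40 to 0.31), with a limma adjusted p of 0.404. After median-of-ratios scaling it was -0.31. Without replicate 3 of the Ang II group, left out after its values were seen, it was -0.99 with an adjusted p of 0.00782, and with both that omission and the rescaling -0.65 with an adjusted p of 0.0740. Rcan1 was thus called in none of these fits, and whether its adjusted p fell under 0.05 rested on 1 heart and on the scaling.

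Rcan2 and Rcan3 encode the other members of this family of calcineurin regulators. Rcan2 was more abundant than Rcan1 in every heart, at 57.9, 49.1 and 52.9 FPKM with Ang II and 57.2, 60.5 and 52.5 FPKM with Tec, and had a log2 fold change of 0.089 (adjusted p = 0.650). The ratio of Rcan1 to Rcan2, which the scaling of a library does not touch, was 0.692, 0.806 and 0.287 with Ang II and 0.421, 0.317 and 0.309 with Tec. The ratio thus separated the first pair of Ang II hearts from the other four. Rcan3 was low, at 1.97, 2.33 and 1.41 FPKM with Ang II and 1.06, 1.44 and 1.17 FPKM with Tec (log2 fold change -0.38, unadjusted p = 0.0385, adjusted p = 0.253 by limma).

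Hypertrophy markers were set beside Rcan1 heart by heart. Nppa, which encodes atrial natriuretic peptide, was at 5568, 9456 and 256 FPKM with Ang II and 906, 3489 and 125 FPKM with Tec. Nppa is also an atrial marker, and hearts with Myl7, an atrial gene, at 332 FPKM or more had its highest values. Nppb, which encodes the B-type peptide, was at 650, 1337 and 137 FPKM with Ang II and 458, 438 and 93.7 FPKM with Tec. Myh7, the slow myosin heavy chain of the fetal programme, was at 156, 86.1 and 48.2 FPKM with Ang II and 68.7, 62.6 and 44.0 FPKM with Tec. Nppa, Nppb and Myh7 were all highest in the 2 hearts with high Rcan1. In replicate 3 of the Ang II group Nppa and Nppb lay below replicates 1 and 2 of the Tec group. Myh6, the fast myosin heavy chain of the adult mouse, went the other way, at 971, 678 and 1153 FPKM with Ang II and 1285, 1491 and 1137 FPKM with Tec (log2 fold change 0.51, unadjusted p = 0.0497, adjusted p = 0.268). The ratio of Myh7 to Myh6 was 0.161, 0.127 and 0.0418 with Ang II and 0.0535, 0.0420 and 0.0387 with Tec, the same split of the hearts as for Rcan1 to Rcan2. Ankrd1, a stress-induced repeat protein of the sarcomere and nucleus, was at 733, 854 and 206 FPKM with Ang II and 602, 560 and 258 FPKM with Tec. Acta1, skeletal alpha-actin, was at 196, 265 and 137 FPKM with Ang II and 627, 195 and 89.2 FPKM with Tec, so its highest heart was a treated one. None of the 6 passed the adjusted threshold (adjusted p 0.268 to 0.860).

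**Figure D2:**
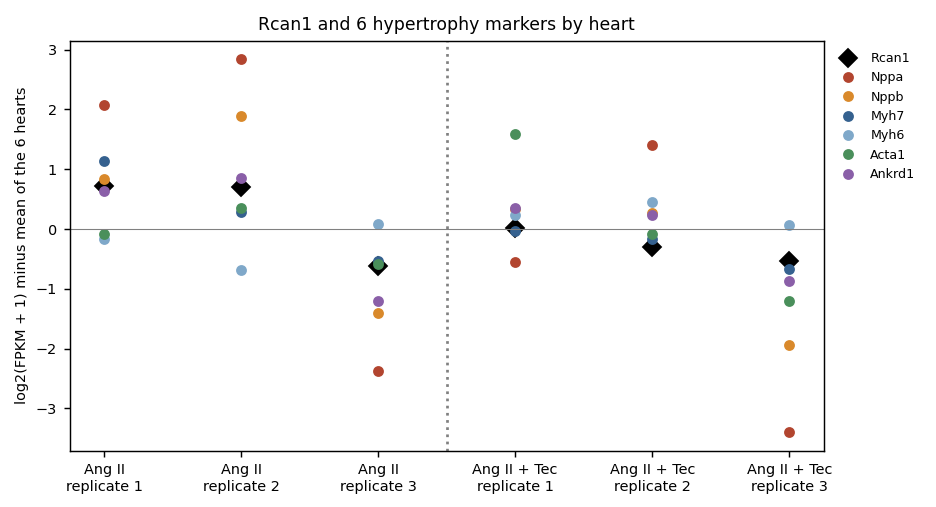
Deviation of log2(FPKM + 1) from the mean of the 6 hearts (vertical axis) for Rcan1 and 6 hypertrophy markers in each heart (horizontal axis, Ang II left and Ang II + Tec right of the dotted line). Rcan1 is above its mean in Ang II replicates 1 and 2 and below it in Ang II replicate 3, where Nppa and Nppb are below theirs as well.

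The 3 tested genes whose log2(FPKM + 1) followed Rcan1 most closely over the 6 libraries, as a description, were Eif3k (Pearson r = 0.995), a subunit of a translation initiation factor, Blk (r = 0.993), a tyrosine kinase of the Src family, and Wdr4 (r = 0.992), a subunit of a tRNA methyltransferase. They were chosen as the highest of 13089 genes over 6 points that share their libraries, and all 3 had their highest values in replicates 1 and 2 of the Ang II group.

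The calcineurin catalytic subunits varied little. Ppp3ca (ENSMUSG00000028161, chr3:136670124-136937727, plus strand), the alpha form, was at 5.25, 5.43 and 4.23 FPKM with Ang II and 4.16, 4.42 and 4.13 FPKM with Tec. Ppp3cb (ENSMUSG00000021816, chr14:20499364-20546573, minus strand), the beta form, was at 8.58, 7.98 and 7.62 FPKM with Ang II and 6.78, 7.90 and 6.71 FPKM with Tec. For both genes replicate 3 of the Ang II group lay below replicate 2 of the Tec group, and the groups overlapped there. The log2 fold changes were -0.18 (SE 0.12, 95% interval -0.47 to 0.10, adjusted p = 0.402) for Ppp3ca and -0.16 (SE 0.11, 95% interval -0.43 to 0.11, adjusted p = 0.431) for Ppp3cb in limma. Median-of-ratios scaling turned both, to 0.020 and 0.058.

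Ppp3cc, the third catalytic gene and best known from testis and brain, was the most abundant of the catalytic genes in every library, at 9.38, 10.2 and 8.56 FPKM with Ang II and 8.72, 8.11 and 8.63 FPKM with Tec. Ppp3r1, the regulatory subunit that binds calcium, was at 30.2, 29.7 and 23.8 FPKM with Ang II and 21.8, 23.9 and 22.9 FPKM with Tec, several times the level of any catalytic gene (log2 fold change -0.27, unadjusted p = 0.0701). Ppp3ca made up 22.6%, 23.0% and 20.7% of the catalytic FPKM with Ang II and 21.2%, 21.6% and 21.2% with Tec, a difference of -0.79 percentage points (two-sided exact permutation test p = 0.4, the smallest possible with 3 against 3 being 0.1). The makeup of the enzyme at the transcript level was therefore not shown to differ.

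The NFATc genes, the targets of calcineurin, were all expressed at a low level, with means over the 6 hearts from 0.952 FPKM for Nfatc4 to 1.82 FPKM for Nfatc1. Nfatc1 (ENSMUSG00000033016, chr18:80606205-80713071, minus strand), which is prominent in endocardium and valves, was at 2.19, 2.02 and 1.70 FPKM with Ang II and 1.57, 1.87 and 1.54 FPKM with Tec. Nfatc2 (ENSMUSG00000027544, chr2:168476410-168601632, minus strand), first known from T cells, was at 1.21, 0.88 and 1.20 FPKM with Ang II and 0.97, 1.03 and 1.37 FPKM with Tec. Nfatc2 was the only one of the 10 with a higher mean after Tec, and its 6 values were interleaved, whereas Nfatc1 overlapped through replicate 3 of the Ang II group and replicate 2 of the Tec group. Their log2 fold changes were -0.16 (SE 0.12, 95% interval -0.43 to 0.12, adjusted p = 0.445) for Nfatc1 and 0.017 (SE 0.12, 95% interval -0.27 to 0.31, adjusted p = 0.941) for Nfatc2. After median-of-ratios scaling they were 0.00041 and 0.14.

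Nfatc3 (ENSMUSG00000031902, chr8:106058840-106128042, plus strand), one of the forms linked to cardiac hypertrophy, was at 1.80, 1.54 and 1.56 FPKM with Ang II and 1.40, 1.49 and 1.25 FPKM with Tec. Every Tec heart was below every Ang II heart, by a narrow margin. The log2 fold change was -0.15 (SE 0.11, 95% interval -0.39 to 0.10, adjusted p = 0.433), and median-of-ratios scaling brought it to 0.00011. Nfatc3 shares 1.87% of its exon bases with Esrp2 on the opposite strand, which was at 0.14 FPKM or less in every library. Nfatc4 (ENSMUSG00000023411, chr14:55823144-55833943, plus strand), the form first tied to cardiac calcineurin through its interaction with GATA4, was at 1.36, 1.38 and 0.74 FPKM with Ang II and 0.68, 1.04 and 0.51 FPKM with Tec. It split the hearts as Rcan1 did, with replicates 1 and 2 of the Ang II group highest and replicate 3 among the Tec values. Its log2 fold change was -0.31 (SE 0.17, 95% interval -0.71 to 0.095, adjusted p = 0.342), -0.19 after scaling, and -0.45 without replicate 3 of the Ang II group (adjusted p = 0.0547).

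As shares of the summed NFATc FPKM, Nfatc3 took 27.4%, 26.5% and 30.0% with Ang II and 30.3%, 27.4% and 26.8% with Tec, a difference of 0.20 percentage points (two-sided exact permutation test p = 0.7). Nfatc1 was the largest share in every heart, between 32.7% and 34.7%. Nfatc4 averaged 19.6% ± 4.85 (SD, n = 3) with Ang II and 14.9% ± 4.12 with Tec, and Nfatc2 18.9% ± 4.00 and 23.1% ± 5.49, and for both the groups overlapped. Nfat5, the relative of this family that responds to osmotic stress and does not depend on calcineurin, had a log2 fold change of -0.0050 (adjusted p = 0.982).

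**Figure D3:**
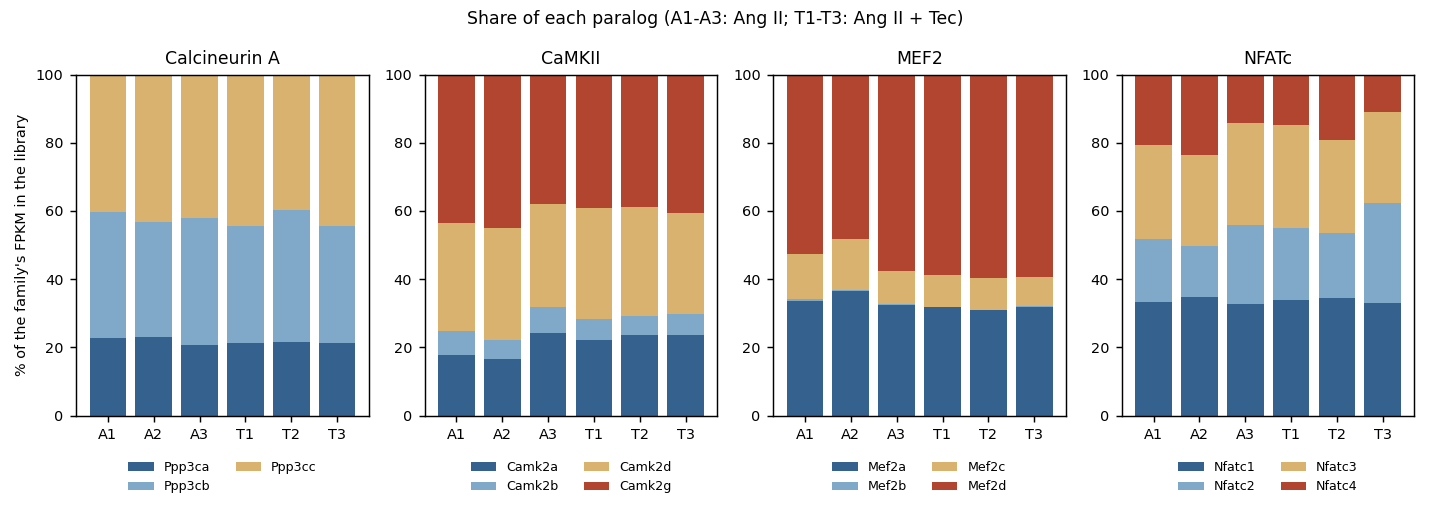
Stacked bars of the share (%) of each paralog in the summed FPKM of its family, per heart, with A1 to A3 for the Ang II replicates and T1 to T3 for the Ang II + Tec replicates. The calcineurin A, CaMKII and NFATc shares of the 2 groups overlap, while in the MEF2 panel the Mef2d share is 48.2% to 57.7% in the Ang II hearts and 58.9% to 59.7% in the Tec hearts.

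Camk2d (ENSMUSG00000053819, chr3:126596302-126846326, plus strand), the CaMKII delta gene, was at 5.59, 5.46 and 4.88 FPKM with Ang II and 4.67, 5.25 and 4.24 FPKM with Tec. The groups overlapped, since replicate 2 of the Tec group exceeded replicate 3 of the Ang II group. The log2 fold change was -0.14 (SE 0.12, 95% interval -0.42 to 0.13, adjusted p = 0.483), and 0.061 after median-of-ratios scaling. At the gene level Camk2g was higher than Camk2d in every library, at 7.71, 7.52 and 6.18 FPKM with Ang II and 5.59, 6.40 and 5.82 FPKM with Tec. Camk2a, a form best known from brain, was at 2.76 to 3.93 FPKM over the 6 libraries (log2 fold change 0.073), and Camk2b at 0.86 to 1.25 FPKM (log2 fold change -0.18, without overlap of the groups). Camk2d made up 31.6%, 32.8% and 30.1% of the CaMKII FPKM with Ang II and 32.6%, 32.0% and 29.6% with Tec, a difference of -0.082 percentage points (two-sided exact permutation test p = 0.9). Camk2d has 28 annotated transcripts, including the nuclear and cytoplasmic delta forms, which a gene-level FPKM does not separate.

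Mef2a (ENSMUSG00000030557, chr7:67231163-67372858, minus strand), one of the main MEF2 factors of the adult heart, was at 9.82, 9.91 and 9.28 FPKM with Ang II and 8.11, 9.18 and 8.03 FPKM with Tec. All Tec hearts were below all Ang II hearts, and Mef2a and Nfatc3 were the only 2 of the 10 genes with that pattern, against 18.9% of all tested genes lower without overlap and 2.90% higher. The log2 fold change was -0.18 (SE 0.11, 95% interval -0.43 to 0.072, adjusted p = 0.368), and 0.042 after median-of-ratios scaling. Mef2a shares 2.06% of its exon bases with Lysmd4 on the opposite strand, which was at 2.22 to 3.89 FPKM, and whether the libraries keep the strand is not given in the sources used here.

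Mef2c (ENSMUSG00000005583, chr13:83504034-83667078, plus strand), a MEF2 factor required for heart development, was at 3.80, 4.10 and 2.75 FPKM with Ang II and 2.36, 2.78 and 2.13 FPKM with Tec. The groups touched at a single point, where replicate 3 of the Ang II group at 2.75 FPKM lay just under replicate 2 of the Tec group at 2.78 FPKM. The means were 3.55 ± 0.709 (SD, n = 3) and 2.42 ± 0.330 FPKM. The log2 fold change was -0.40 (SE 0.15, 95% interval -0.76 to -0.044), with an unadjusted p of 0.0327 and an adjusted p of 0.243 in limma. After median-of-ratios scaling the value was -0.22 with an unadjusted p of 0.0346 and an adjusted p of 0.302. The unadjusted p of Mef2c was no longer under 0.05 without replicate 1 or 2 of the Ang II group or replicate 1 or 3 of the Tec group, where the log2 fold change stayed at -0.31 or below. Without replicate 3 of the Ang II group it was -0.54 with an adjusted p of 0.0219, and with the rescaling as well -0.27 with an adjusted p of 0.0803. In that fit on 5 hearts, Rcan1 and Mef2c were the 2 of the 10 genes below an adjusted p of 0.05 before rescaling, where 26.2% of all tested genes were lower at that threshold.

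Within the MEF2 family, Mef2d was the most abundant gene, at 15.4, 13.1 and 16.6 FPKM with Ang II and 15.0, 17.8 and 15.0 FPKM with Tec (log2 fold change 0.079, adjusted p = 0.726). Mef2b was nearly silent, at 0.08 to 0.14 FPKM with Ang II and 0 to 0.02 FPKM with Tec, and was not tested. Mef2a took 33.7%, 36.4% and 32.3% of the MEF2 FPKM with Ang II and 31.9%, 30.9% and 32.0% with Tec, a difference of -2.59 percentage points. The groups did not overlap, and the two-sided exact permutation test gave p = 0.1, the smallest the design allows (adjusted over the 4 shares tested, p = 0.4). The Mef2c share, chosen for description after its values were seen, was 13.0%, 15.1% and 9.57% with Ang II and 9.27%, 9.35% and 8.48% with Tec. The ratio of Mef2c to Mef2d was 0.247, 0.312 and 0.166 with Ang II and 0.157, 0.157 and 0.142 with Tec. Each of these within-library values was lower in all 3 Tec hearts than in any Ang II heart, with replicate 3 of the Ang II group next to the Tec hearts. They all have Mef2d in the denominator, so they are not separate observations.

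**Figure D4:**
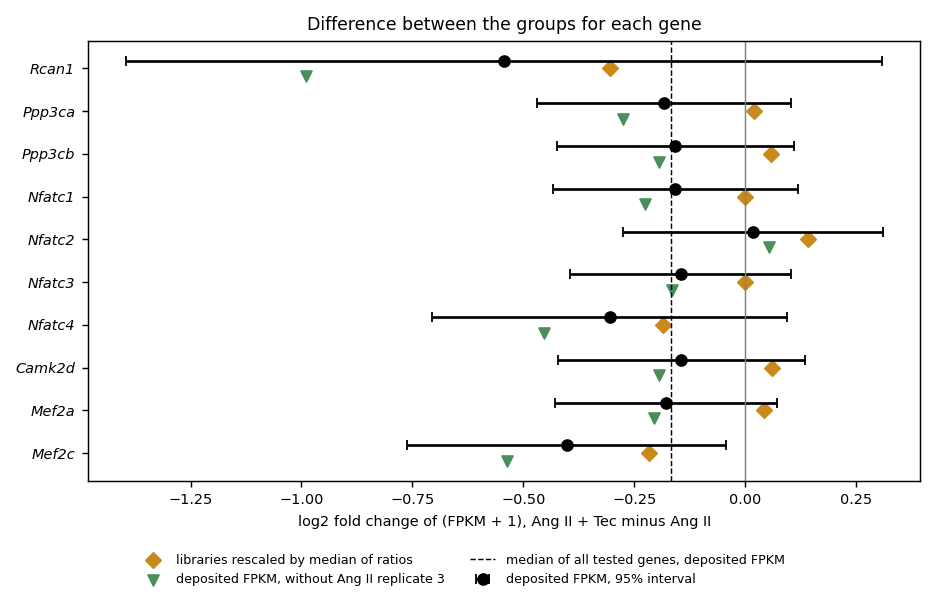
Log2 fold change of (FPKM + 1), Ang II + Tec minus Ang II, for each gene: black points with 95% intervals for the deposited FPKM, diamonds after median-of-ratios scaling and triangles without Ang II replicate 3. The dashed line is the median of all tested genes, -0.17, and after scaling only Rcan1 (-0.31), Mef2c (-0.22) and Nfatc4 (-0.19) remain below 0.

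By level, the order of the mean FPKM over the 6 hearts was Rcan1 (25.7 ± 11.4, SD), Mef2a (9.06 ± 0.816), Ppp3cb (7.60 ± 0.729), Camk2d (5.02 ± 0.514), Ppp3ca (4.60 ± 0.582), Mef2c (2.99 ± 0.791), Nfatc1 (1.82 ± 0.259), Nfatc3 (1.51 ± 0.183), Nfatc2 (1.11 ± 0.181) and Nfatc4 (0.952 ± 0.367). From Rcan1 to Nfatc3 each gene exceeded the next in 6 of 6 libraries. Nfatc3 exceeded Nfatc2 in 5 of 6 and Nfatc2 exceeded Nfatc4 in 3 of 6, so the lowest of these did not separate beyond their spread. FPKM is per length, which allows the order to be given. Whether the annotated transcripts of a gene or its overlap with genes on the opposite strand affect its place was not tested.

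The remaining genes of the pathway were taken from lists. Of 29 listed partners of calcineurin and NFAT, 27 were tested, 23 had a lower mean and 4 a higher one, and the median log2 fold change was -0.17 (0.022 after median-of-ratios scaling). None was called, a rule that 0.160% of all tested genes met. At an unadjusted p under 0.05, 5 of the 27 were lower, against 16.5% of all tested genes. After scaling 4 were lower and 1 higher, against 7.90% and 7.56% of all tested genes. The higher one was Stim1, the calcium sensor of the endoplasmic reticulum (log2 fold change 0.15 before scaling, 0.30 after, unadjusted p = 0.00469, adjusted p = 0.224). Cib1, a calcium-binding partner that anchors calcineurin at the sarcolemma, was at 4.80, 5.65 and 3.64 FPKM with Ang II and 2.33, 2.96 and 2.92 FPKM with Tec (log2 fold change -0.60, unadjusted p = 0.00713, adjusted p = 0.201). Calm3, a gene for calmodulin, was at 90.3, 94.4 and 63.3 FPKM with Ang II and 53.8, 57.8 and 55.1 FPKM with Tec (log2 fold change -0.54, unadjusted p = 0.0127). Both were lower in every Tec heart than in any Ang II heart. Calm2, which encodes the same protein, had a log2 fold change of -0.62 (unadjusted p = 0.0405), and -0.38 after scaling (unadjusted p = 0.0664). Fkbp1a, which encodes the immunophilin FKBP12 that carries tacrolimus to calcineurin, was at 50.2, 55.9 and 35.8 FPKM with Ang II and 30.2, 32.2 and 31.0 FPKM with Tec (log2 fold change -0.57, unadjusted p = 0.0120), and a processed copy of it in the table could share its reads. The fifth was Rcan3, described above.

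For CaMKII and MEF2, 25 of 27 listed partners were tested, of which 18 were lower and 7 higher, with a median log2 fold change of -0.16 (-0.013 after scaling). Hdac9, a class II deacetylase that represses MEF2, was at 1.50, 1.58 and 1.23 FPKM with Ang II and 0.73, 0.79 and 0.87 FPKM with Tec, without overlap (log2 fold change -0.44, unadjusted p = 0.00413, adjusted p = 0.201, and -0.31 after scaling). Nkx2-5, the cardiac homeobox factor, had a log2 fold change of -0.38 (unadjusted p = 0.0261), and -0.14 after scaling (unadjusted p = 0.161). Camkk2, a kinase upstream of the CaM kinases, had a log2 fold change of -0.39 (unadjusted p = 0.0439), and -0.27 after scaling (unadjusted p = 0.0472). Sik1, a kinase that also phosphorylates class II deacetylases, was the only listed partner higher at an unadjusted p under 0.05 on the deposited scale, at 2.79, 3.51 and 2.56 FPKM with Ang II and 4.47, 4.76 and 3.33 FPKM with Tec (log2 fold change 0.39, unadjusted p = 0.0406, adjusted p = 0.256), and the groups overlapped. The other class II genes Hdac4, Hdac5 and Hdac7 had log2 fold changes of 0.085, -0.021 and -0.073.

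Upstream of both branches, 17 of 19 listed genes of Gq input were tested, with 12 lower and 5 higher and a median log2 fold change of -0.10 (0.070 after scaling). Agtr1a, the main Ang II receptor of the mouse heart, was at 9.24, 6.22 and 9.87 FPKM with Ang II and 8.46, 6.06 and 8.11 FPKM with Tec (log2 fold change -0.13, adjusted p = 0.684). Adra1b, an alpha1-adrenergic receptor, was at 10.7, 8.12 and 9.45 FPKM with Ang II and 4.33, 5.96 and 6.80 FPKM with Tec (log2 fold change -0.65, unadjusted p = 0.00669, adjusted p = 0.201, and -0.44 after scaling, unadjusted p = 0.0537). Rgs4, which shortens Gq signals, was at 8.11, 12.1 and 5.82 FPKM with Ang II and 4.21, 4.59 and 5.25 FPKM with Tec (log2 fold change -0.72, unadjusted p = 0.0162, adjusted p = 0.224). For Adra1b and Rgs4 every Tec heart was below every Ang II heart. Among 7 MEF2 target genes, all tested, 3 were lower and 4 higher, and Smyd1, a muscle methyltransferase, was the only one with an unadjusted p under 0.05 on the deposited scale (log2 fold change -0.32, unadjusted p = 0.0299, without overlap, and -0.076 after scaling, unadjusted p = 0.601). After scaling 0 of the 7 were lower and 2 were higher at that threshold, against 7.90% and 7.56% of all tested genes. The higher ones were Ppargc1a, a coactivator of mitochondrial genes (log2 fold change 0.45, unadjusted p = 0.0284), and Nr4a1, an immediate-early nuclear receptor gene (log2 fold change 1.02, unadjusted p = 0.0156). Over the 3 signalling lists together, 69 of 75 genes were tested, 10 were lower and 1 higher at an unadjusted p under 0.05, and 9 were lower without overlap, shares no larger than those of all tested genes. After scaling 7 of the 69 were lower at that p, against 7.90% of all tested genes. At the same p 2 were higher, against 7.56% of all tested genes.

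**Figure D5:**
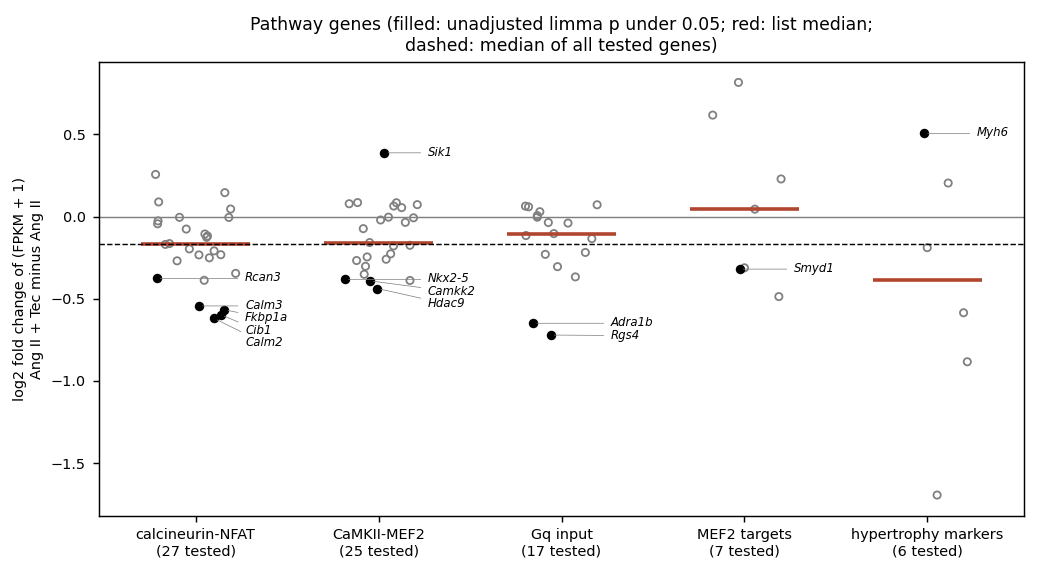
Log2 fold change of (FPKM + 1), Ang II + Tec minus Ang II, for the tested genes of 5 lists (horizontal axis), with genes at an unadjusted limma p under 0.05 filled and named, list medians in red and the median of all tested genes dashed. The medians of the calcineurin-NFAT list (-0.17) and the CaMKII-MEF2 list (-0.16) lie at the dashed line, and Sik1 is the only named signalling gene above 0 on this, the deposited, scale.

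Markers of cell types were summed by heart, and the lists did not all split the hearts alike. Cardiomyocyte markers were high in all 6 hearts, with a summed level of 7737 to 9544 FPKM with Ang II and 8133 to 9067 FPKM with Tec, and 4 of 8 had lower means, or 2 of 8 after median-of-ratios scaling, beside 80.0% and 48.2% of all tested genes. Fibroblast markers summed to 172 to 1029 FPKM with Ang II and 141 to 233 FPKM with Tec, with 8 of 8 lower means on both scales. Macrophage markers summed to 73.3 to 130 FPKM and 46.8 to 53.6 FPKM, with 7 of 7 lower, or 6 of 7 after scaling. In both lists the lowest Ang II sum was that of replicate 3, the heart in which all of the 10 genes except Nfatc2 and Nfatc3 were lowest in the group. Atrial markers summed to 256 to 10253 FPKM with Ang II and 128 to 5056 FPKM with Tec. Most of each sum was Nppa, which is also among the hypertrophy markers above. Of these, 4 of 4 tested had a lower mean log2(FPKM + 1) with Tec on both scales. In mean FPKM, Nppa and Myl4 were lower with Tec. Myl7 (347 with Tec, 250 with Ang II) and Sln (85.1 and 67.3) were higher. Myl7, the atrial myosin light chain, was at 419, 332 and 0 FPKM with Ang II and 0, 1040 and 1.58 FPKM with Tec, and Bmp10 was at 0 in replicate 3 of the Ang II group and in replicates 1 and 3 of the Tec group. Endothelial markers summed to 107 to 116 FPKM and 93.3 to 102 FPKM (6 of 7 lower, 3 of 7 after scaling), smooth muscle and pericyte markers to 214 to 448 FPKM and 168 to 334 FPKM (5 of 6 lower, 3 of 6 after scaling), and erythroid markers to 248 to 1018 FPKM and 147 to 526 FPKM (5 of 5 lower on both scales). Lymphocyte and Schwann cell markers summed to at most 4.69 FPKM in any heart. Skeletal muscle markers summed to 0.65 to 43.2 FPKM and 11.9 to 13.3 FPKM, and Atp2a1 and Mylpf were its called genes. The part of these cell types, of the mitochondrial share and of replicate 3 in the values of the 10 genes was not tested.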

How the data were processed

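Poly(A) RNA of 6 hearts was sequenced with paired ends, and the authors deposited FPKM for each gene and heart. The submitters' processing notes name Bowtie 0.12.2, HISAT2 2.0, StringTie 1.3.0 and mm8, without giving their roles. The coordinates of the table, however, equal those of GENCODE M21 on GRCm38 for 27947 of 30832 shared genes (90.6%) and for 7 of the 10 genes described (not Nfatc2, Nfatc3 and Mef2c), and coordinates are given as deposited. The instrument is a NovaSeq in the labels.

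Depth is known only as a relative value, from the spacing of low FPKM (0.887 to 1.18), so no counting interval was given and the spread between hearts was the error. Values of log2(FPKM + 1) were fitted with limma 3.58.1 in R 4.3.3 (eBayes with a variance trend, two-sided), with Benjamini-Hochberg adjustment over the 13089 genes that reached 0.5 FPKM in 3 or more libraries. Calls needed an adjusted p under 0.05 and a log2 fold change of 1 or more in size. Family shares were compared by exact permutation tests (scipy 1.17.1). The labels give separate hearts. In simulated data for this comparison, 186 of 200 genes changed by a log2 fold change of 2 were recovered among 13089 genes, with 3 false calls. The log2 fold changes of the genes listed by name at the start of the Results ran from -0.54 (Rcan1) to 0.017 (Nfatc2). Only a change of 2 was simulated, so the recovery does not show how often changes of that smaller size would be found.

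The 10 genes and all lists were chosen with earlier results of these data known. Named beside the 10 were their paralogs, listed genes at an unadjusted p under 0.05 or with a gap of at least 0.5 between the groups, the 6 hypertrophy markers and the 3 genes most like Rcan1. Hdac4, Hdac5, Hdac7, Agtr1a and the genes named only for their values after rescaling were named after their values were seen. Alternatives changed the pseudocount (0.1), the filter, the scaling, the variance trend, library weights and the replicate block, and left out each heart. Rescaling without replicate 3 of the Ang II group, and the counts among the 10 genes, were added after seeing the data.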

Additional observations from a re-analysis of the deposited data

How the results depend on the processing

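Rcan1, Nfatc4 and Mef2c kept a negative log2 fold change under all 16 alternatives, from -0.99 to -0.31, from -0.58 to -0.16 and from -0.58 to -0.21. The 6 genes that turned positive did so under median-of-ratios scaling, under quantile normalization, and under median-of-ratios scaling without replicate 3 of the Ang II group, in that order: 0.020, 0.024 and 0.017 for Ppp3ca, 0.058, 0.056 and 0.12 for Ppp3cb, 0.00041, 0.016 and 0.0044 for Nfatc1, 0.00011, 0.015 and 0.046 for Nfatc3, 0.061, 0.072 and 0.10 for Camk2d, and 0.042, 0.032 and 0.11 for Mef2a. All of these scalings take the shift of the whole table out by construction, and each left 3 of the 10 genes with a lower mean. List medians in the same order were 0.022, 0.034 and 0.028 for calcineurin and NFAT, -0.013, -0.0096 and 0.032 for CaMKII and MEF2, 0.070, 0.089 and 0.083 for Gq input (-0.24 with library weights), and 0.29, -0.069 and 0.53 for MEF2 targets (0.17 with library weights).

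Leaving out each heart in turn gave 2 to 557 called genes against 21, 969 to 5715 genes at an unadjusted p under 0.05 against 2439, and 0 to 4 of the 10 genes at that threshold against 1. The called genes numbered 3, 7 and 557 without replicates 1, 2 and 3 of the Ang II group and 4, 2 and 3 without those of the Tec group, and of the 10 genes 0, 0 and 4, and 0, 1 and 0, had an unadjusted p under 0.05. Nfatc2 ranged from -0.064 to 0.069, the Camk2d share from -0.79 to 0.80 percentage points, the Nfatc3 share from -0.86 to 1.22, and the median of the MEF2 targets from -0.058 to 0.17. Library weights gave 522 called genes, 6074 at an unadjusted p under 0.05 and 5 of the 10. The rescaled fit without replicate 3 of the Ang II group gave 334, 4294 and 2. Without a filter 3 genes were called. The cause of these changes was not tested.

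The labels name no pairs, and their replicate numbers were not taken as a pairing. Same-numbered hearts deviated together with correlations of -0.039, 0.429 and 0.379, and 4 of 6 libraries correlated best with their own number. The replicate block gave 22 called genes and 3308 at an unadjusted p under 0.05, with 3 of the 10 genes among them. By limma these were Rcan1 (unadjusted p = 0.0403, adjusted p = 0.182), Nfatc4 (0.0361 and 0.175) and Mef2c (0.0153 and 0.140). With 3 hearts a group, FPKM without counts and a library that stands apart, differences of the size seen for these genes could be estimated only within the intervals given.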

Other observations

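Among the listed partners of CaMKII, 3 kinase genes of the CaM kinase pathway varied widely between the Ang II hearts. They were chosen after their values were seen and are given as a description, with no test of the pattern. Camkk1, which encodes an activating kinase of the CaM kinases, reached 1.27, 1.53 and 0.44 FPKM with Ang II alone and 0.49, 1.00 and 0.48 FPKM with Tec. Camk1d, a CaM kinase of the CaMKI group, was at 0.85, 1.57 and 0.35 FPKM and at 0.35, 1.10 and 0.32 FPKM. Camkk2 was at 1.32, 1.46 and 0.69 FPKM and at 0.54, 0.77 and 0.57 FPKM. All 3 had their highest values in replicates 1 and 2 of the Ang II group and replicate 2 of the Tec group, the 3 hearts with Myl7 at 332 FPKM or more. In the other 3 hearts Myl7 was at 1.58 FPKM or less. Camk1, a further CaM kinase gene of the list, did not share this split. It was at 13.4, 13.5 and 7.50 FPKM with Ang II alone and 8.15, 8.29 and 9.04 FPKM with Tec, so replicate 2 of the Tec group did not stand out. Whether the amount of atrial tissue accounts for these values was not tested.

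Ckm, the muscle creatine kinase gene and a MEF2 target, reached 340, 259 and 559 FPKM with Ang II alone and 697, 443 and 577 FPKM with Tec (log2 fold change 0.62, limma adjusted p = 0.299). Nr4a1, an immediate-early nuclear receptor gene that MEF2 also controls, was at 3.56, 3.95 and 1.61 FPKM and at 5.90, 9.85 and 3.30 FPKM (log2 fold change 0.82, adjusted p = 0.284).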
